A study of Mus musculus with 28 samples.

Results

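A set of 9 complement genes was followed here through the liver, pancreas and lung of mice that expressed human APOBEC3B. The members are the components C2, C3, C6, C8a, C8b and C9, the factors Cfb and Cfi, and the mannose-binding lectin Mbl2, 9 of the 35928 gene symbols in the liver and pancreas files and 9 of the 24845 genes kept from the liver and lung table. They were named for their role in complement with earlier results of these data known, so their shares of calls stand beside those of all genes as a description. Every member was found in both kinds of file.

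Complement is a cascade of plasma proteins, most of them secreted by hepatocytes. Recognition molecules such as Mbl2 bind sugars on microbes and start the lectin pathway, C2 and Cfb supply the proteases of the convertases that cleave C3, and C6, C8 and C9 join C5b in the pore that pierces membranes. Cfi, a serine protease of plasma, cleaves the activated C3b and C4b and so limits the cascade.

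The model carries human APOBEC3B fused to turboGFP (A3B) behind a tetracycline operator in the ColA1 locus, and a CAGs-rtTA3 driver that switches it on in most tissues under doxycycline. Mice were 4 weeks old at the start of food holding 625 ppm doxycycline, and RNA was taken from whole tissue, so fewer cells of a type and less RNA per cell cannot be told apart. The first set of 12 samples held 3 A3B and 3 control livers and 3 A3B and 3 control lungs. The second set of 16 samples held 6 A3B and 2 control livers and 6 A3B and 2 control pancreases. A3B mice carry both transgenes and most controls A3B alone, with doxycycline given to controls too according to the labels. The titles set the groups. The genotype labels go against them for A3B pancreases 44 and 137 (A3B alone) and for control pancreases 45 and 168 and control liver 11 (A3B + CAGS-rtTA), and control lung 87 is labelled with the driver alone. All samples of the second set are labelled 10 days of doxycycline, and the study's list of mice gives the same for its controls. Its methods also have control littermates on doxycycline, whereas a remark on its variant calls describes the control animals as without the drug, and the sources used here do not settle this. In the first set the controls are labelled 15 days, A3B livers 23 and 28 are labelled 14 days and the other A3B samples 10 days, so treatment time and genotype cannot be told apart there; the study's list of mice gives no doxycycline for most of these controls.

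The second set held 65200000 to 98800000 estimated counts per library in the A3B livers, 105000000 to 119000000 in the control livers, 74800000 to 87600000 in the A3B pancreases and 87300000 to 95600000 in the control pancreases, to 3 digits. The first set was given only as TPM (a transcript level corrected for length and scaled to the same total in every library), so its depth is unknown. The transgene was measured in the first set, at 705 to 1705 TPM in A3B livers, 90.6 to 281 TPM in A3B lungs and at most 0.526 TPM in any control, including control liver 11 at 0.144 TPM. It was not measured in the second set. Transcripts of the Y chromosome (mean TPM of 4 genes) were at 8.59 to 17.0 TPM in the samples of A3B mice 125, 137 and 153 of the second set and at 8.88 and 3.42 TPM in the liver and pancreas of control mouse 168. They were at 1.02 TPM in A3B liver 48, at 0.416 TPM in A3B liver 44 and at or below 0.206 TPM in the other samples of that set. In the first set only control liver 11 held them. The labelled tissues carried their markers: 10 hepatocyte genes summed to 47779 TPM or more in every liver of the second set, 10 acinar genes to 74268 TPM or more in every pancreas, and 8 lung epithelial genes to 18769 TPM or more in every lung. A3B liver 48 stood apart, with many reads on short transcript models at the 3′ end: such models held 84.2% of the Cfb counts, 53.9% of the C8b counts and 25.3% of the C9 counts there, against at most 7.85%, 0.0631% and 2.78% in the other livers of that set.

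The 9 genes lie on 5 mouse chromosomes (GRCm38, GENCODE M21). All are protein-coding. C8b (ENSMUSG00000029656.13, chr4:104766317-104804548, forward strand) and C8a (ENSMUSG00000035031.15, chr4:104815679-104876398, reverse strand) end 11130 bases apart, tail to tail. Cfb (ENSMUSG00000090231.10, chr17:34856374-34862518) and C2 (ENSMUSG00000024371.14, chr17:34862604-34898265) lie on the reverse strand with 85 bases between them, and a read-through gene, Gm20547, runs over both; adding its counts to Cfb and C2 changed no call. C6 (ENSMUSG00000022181.16, chr15:4727175-4814967) and C9 (ENSMUSG00000022149.17, chr15:6445327-6498751) are on the forward strand of the same chromosome, 1630359 bases apart. C3 (ENSMUSG00000024164.15) is at chr17:57203970-57228136 on the reverse strand, Cfi (ENSMUSG00000058952.12) at chr3:129835884-129875332 and Mbl2 (ENSMUSG00000024863.6) at chr19:30232942-30239687, both on the forward strand.

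Promoter sequence, 250 bases before to 50 after the start, was at hand from RefSeq (GRCm38.p6) for C3, C6, C8a, C8b, C9 and Mbl2, and not for C2, Cfb and Cfi. It was searched on both strands for 3 short motifs of factors known in liver or acute-phase transcription. GTTAAT, the core of an HNF1 site, was in 2 of the 6 promoters and in 7.1% of all 32851 promoters. TTNNGNAA, the C/EBP core, was in 4 of the 6 and in 40.7% of all, and GGGNNNNNCC, the NF-kB core, in 1 of the 6 and in 50.8% of all. The windows below, 30 bases each with the match in capitals, are shown because C8a and C9 fell in the A3B livers of the second set, C8b is the neighbour of C8a, and C3 rose in the A3B pancreases. They are written 5′ to 3′ on the gene's strand. The matches shown of C8b and C9 read on the opposite strand and both C3 matches shown read on both strands. Further C/EBP matches in C3, C6 and C8b and further NF-kB matches in C3 are not shown. All are matches of letters, not measured sites.
C8a, HNF1 core, chr4:104876487-104876516, reverse strand: cttggttactaGTTAATcacattgaatggg
C8b, HNF1 core, chr4:104766100-104766129, forward strand: actttacctgtATTAACcctctaaccctga
C9, C/EBP core, chr15:6445203-6445232, forward strand: tttttggtttaTTGCATAAtgacactttgt
C3, C/EBP core, chr17:57228163-57228192, reverse strand: aggaaactatgTTGCGAAAttttgggcagt
C3, NF-kB core, chr17:57228151-57228180, reverse strand: tgcgaaattttGGGCAGTCCCtggtgcagg

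The windows of C3 overlap each other, while the matches in them do not. The match of C8a lies 107 to 102 bases before the start, and the 2 C3 matches shown 45 to 38 and 33 to 24 bases before it.

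The first question was where these genes were expressed without the transgene. In the control livers of the second set C3 had the highest level, 3597 TPM in mouse 45 and 2459 TPM in mouse 168, both above the levels of every other member. Cfb (mean 796 TPM) and Mbl2 (mean 727 TPM) came next, followed by Cfi at 419 and 527 TPM. C9, C8a and C8b had means of 295, 222 and 202 TPM, and C6 (14.0 and 160 TPM) and C2 (59.7 and 65.0 TPM) came last. From Cfb down to C2 each member overlapped its neighbour in this order. In the control livers of the first set Mbl2 was the highest member at 2852 to 5597 TPM, above C3 at 1886 to 2565 TPM. The sets were quantified separately, so no level was compared across them.

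The control pancreases held little of any member. C3 had a mean of 19.1 TPM, Cfb 8.41 TPM and C2 3.55 TPM, each several times higher in mouse 168 than in mouse 45. C6, Cfi, C8a, C8b, C9 and Mbl2 were at or below 0.556 TPM in both, with C9 and Mbl2 at 0 counts in mouse 168, where a count of 0 allows up to 3. In control lungs C3 was 163 to 370 TPM, C2 14.5 to 35.1 TPM and C6 8.22 to 12.4 TPM. C8a, C8b and C9 were at or below 1.39 TPM in every control lung.

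Compared directly, all 9 members were higher in control liver than in control pancreas by edgeR's quasi-likelihood test, where 19.6% of all genes tested were called higher. The log2 difference ran from 3.45 ± 0.63 (SE) for C2 (adjusted p = 0.000563, edgeR) to 11.02 ± 1.90 for C8a (adjusted p = 0.000397, edgeR). Against control lung, 8 of 9 members were higher in control liver by limma on log2(TPM + 1), with 13.2% of all genes called higher. The call of C2 (1.27, adjusted p = 0.0366, limma) was lost without control liver 11 (1.02, adjusted p = 0.1194), without control liver 92 (1.26, adjusted p = 0.07963), without control lung 91 (0.87, adjusted p = 0.1519) and with no filter on low values (adjusted p = 0.05251). The exception was C6, at a log2 difference of -0.32 ± 0.86 (adjusted p = 0.748, limma), with control liver 11 at 50.5 TPM and the other control livers at 2.40 and 2.61 TPM. Without control liver 11 C6 was lower in liver than in lung, at -1.61 on that scale (adjusted p = 0.004543, limma).

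**Figure D1:**
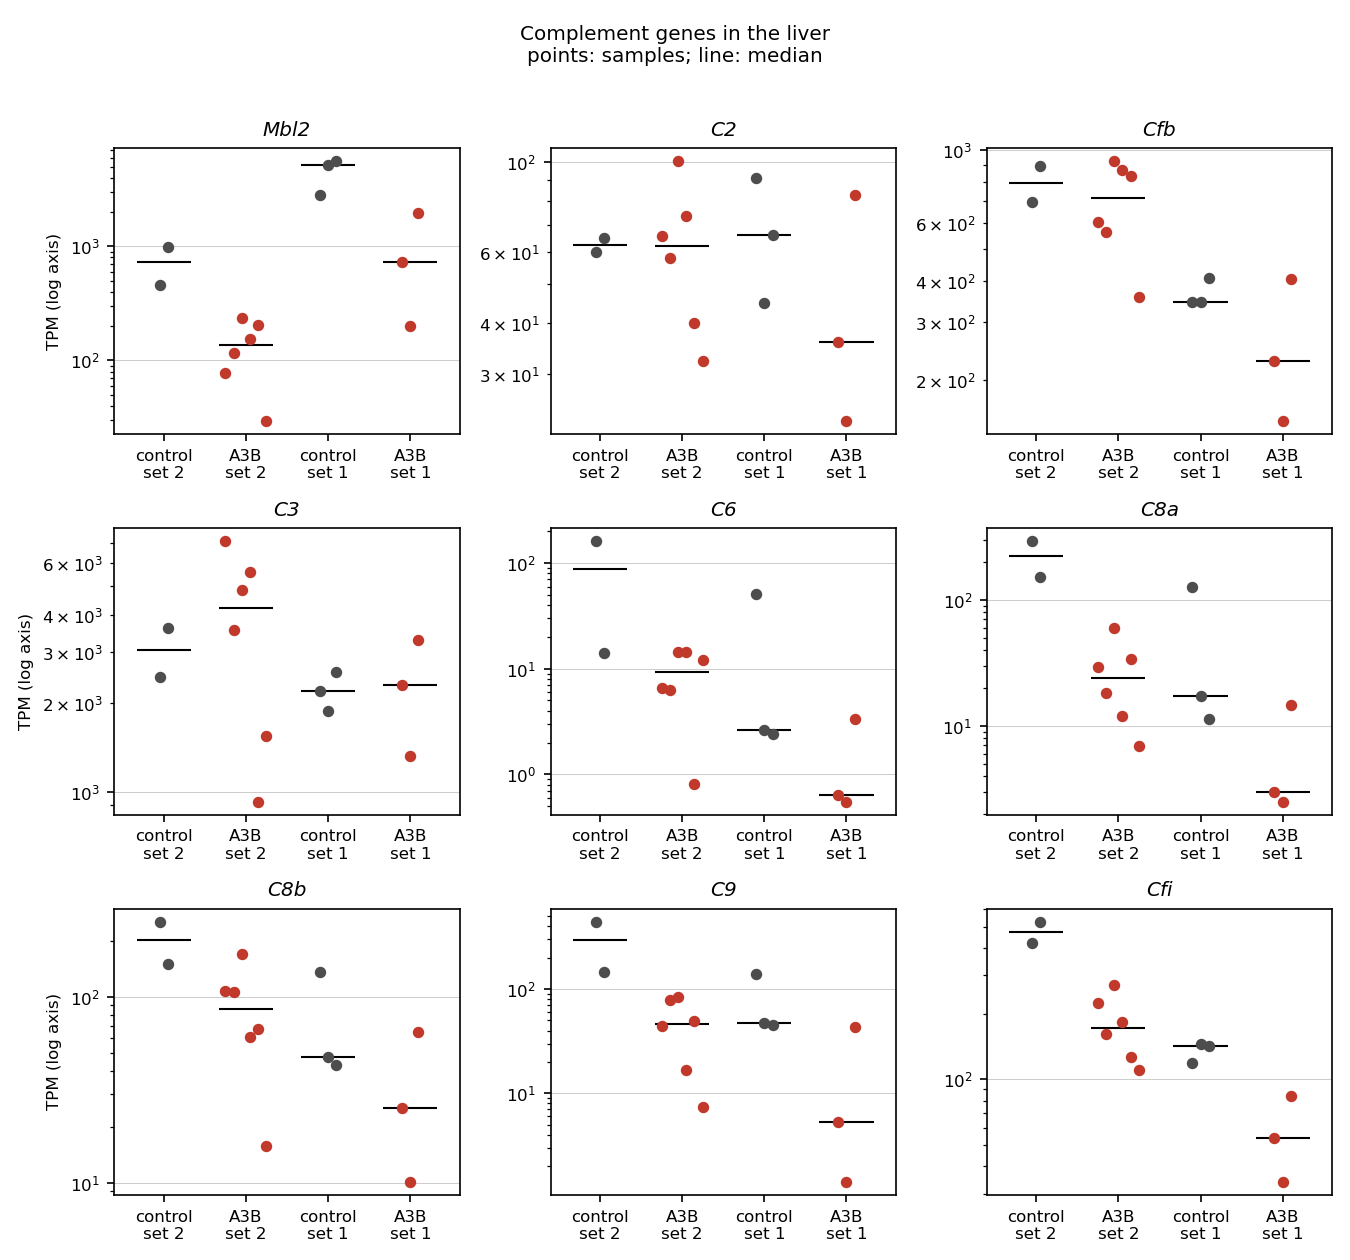
TPM of the 9 members (log axis) in each liver, in panels for the second and the first set, with A3B and control mice as separate points. In the second set C8a, C9, Cfi and Mbl2 of the 6 A3B livers lie below both controls, and C2, C3 and Cfb overlap them.

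The main comparison asked how the members changed in A3B livers. In the second set the terminal components C6, C8a and C9, the inhibitor Cfi and the lectin Mbl2 fell, while C2, C3, Cfb and C8b did not pass the test. These 5 of 9 calls stand beside 2.41% of the 17376 genes tested that were called lower. All 9 fold changes were negative, with a median of -1.76 on the log2 scale against 0.21 for all genes. The groups did not overlap, with every A3B liver lower, for C8a, C9, Cfi and Mbl2, as for 5.42% of all genes tested.

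Mbl2, the recognition molecule, was 29.2 TPM in the lowest, 135 TPM in the median and 235 TPM in the highest A3B liver, against 992 and 461 TPM in the controls. Every A3B liver was lower than both controls. The log2 fold change was -2.70 ± 0.61 (SE, n = 6 and 2), with an adjusted p of 0.0449 by edgeR.

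Of the convertase genes, C2, which supplies the protease of the classical and lectin C3 convertase, ranged in A3B livers from 32.3 over a median of 61.8 to 100.3 TPM, around the controls at 65.0 and 59.7 TPM. Its log2 fold change was -0.52 ± 0.42 (adjusted p = 0.487, edgeR). Cfb, the protease of the alternative pathway convertase, ran from 358 over 718 to 926 TPM against 897 and 695 TPM, a log2 fold change of -0.82 ± 0.43 (adjusted p = 0.281, edgeR). For both genes the groups overlapped. C3, the substrate of both convertases, spread widest among the 3 in A3B livers, from 925 TPM in mouse 48 over a median of 4217 TPM to 7107 TPM in mouse 125, on both sides of the controls at 3597 and 2459 TPM. Its log2 fold change was -0.02 ± 0.70 (adjusted p = 0.991, edgeR) and turned positive under several settings.

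Among the terminal components, C8a, which encodes the alpha chain of C8, was 6.96 TPM in the lowest, 23.8 TPM in the median and 59.7 TPM in the highest A3B liver, against 153 and 291 TPM in the controls. The groups were well separated, and the log2 fold change was -4.05 ± 0.64 (adjusted p = 0.0141, edgeR). C9, the subunit that polymerizes into the pore, was 7.42 to 83.5 TPM with a median of 46.7 TPM, against 147 and 444 TPM. All A3B livers were lower, at a log2 fold change of -3.29 ± 0.76 (adjusted p = 0.0462, edgeR). C8b, which encodes the beta chain, was 15.7 to 169 TPM with a median of 86.6 TPM, against 150 and 254 TPM. A3B liver 153, at 169 TPM, lay above control 45, and the log2 fold change of -1.68 ± 0.68 did not pass (adjusted p = 0.178, edgeR).

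C6, which joins C5b to begin the pore, gave a call that rested on a single control. A3B livers held 0.802 to 14.5 TPM with a median of 9.28 TPM, and control 45 at 14.0 TPM lay inside that range, while control 168 was at 160 TPM. The log2 fold change was -3.77 ± 0.83 (adjusted p = 0.0419, edgeR), and -1.05 without control 168 (adjusted p = 0.6879, edgeR). Control 168 was also the control with Y chromosome transcripts. In the first set control liver 11, the only one there with such transcripts, held 20.2 times the mean C6 level of controls 91 and 92, and 8.76 times their C8a. The log2 fold change of C6 was -4.63 among the Y-expressing mice of the second set and -1.10 among the others, each against 1 control, and the difference between them was not tested. With Y expression as a covariate over all 8 livers C6 was not called (-3.42, adjusted p = 0.08448, edgeR).

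Cfi, the inhibitor, was 110 to 270 TPM with a median of 172 TPM in A3B livers, against 527 and 419 TPM. All 6 values lay below both controls, and the log2 fold change was -1.76 ± 0.37 (adjusted p = 0.0351, edgeR).

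The calls changed with the libraries in the fit. With 1 control left out the other is assumed to vary like the A3B livers, and edgeR called 73 genes in all without control 168 and 74 without control 45, against 636 with both. Without control 168 no member was among them, and all 9 log2 fold changes stayed negative. Those of Mbl2 (-3.14) and Cfi (-1.88) were larger in size than with both controls, so the calls of Mbl2 and Cfi were lost without a smaller fold change. Those of C8a (-3.39), C9 (-2.18) and C6 (-1.05) were smaller in size than with both controls. Without control 45 edgeR called C6 and C8a, without A3B liver 44 or 137 only C8a, and without A3B liver 125 or 153 C8a and Cfi. Without A3B liver 48, the library with reads at 3′ ends, C6, C8a, Cfi and Mbl2 were called and C9 was not (-3.30, adjusted p = 0.0568, edgeR). With Y expression as a covariate edgeR called C8a, C9, Cfi and also C8b (-2.07, adjusted p = 0.03471), while C6 and Mbl2 (-2.71, adjusted p = 0.05928) were not called.

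Markers of other cell types also differed between the livers of the second set, and their part was not tested. Adipocyte markers (6 genes) summed to 27.1 to 256 TPM in A3B livers against 11.2 and 16.6 TPM in controls. Neutrophil markers (7 genes) summed to 5.88 to 121 TPM against 3.02 and 5.16 TPM. No gene of either list was called by edgeR, and sums of the other listed types, hepatocytes aside, overlapped. The summed hepatocyte markers were lower in A3B livers. The 10 marker genes summed to 47779 to 115150 TPM in the A3B livers and to 118382 and 176628 TPM in the controls. By edgeR none of the 10 was called, 8 had negative and 2 positive log2 fold changes, and the median was -0.43. Set against that sum, Mbl2 was 0.611 to 2.80 TPM per 1000 TPM of hepatocyte markers in A3B livers and 3.90 to 5.61 in controls, and Cfi 1.73 to 2.34 against 2.98 to 3.54. C8a was 0.113 to 0.518 against 0.866 to 2.46. These 3 genes stayed below the controls on this ratio, whereas C9 (0.155 to 0.871 against 0.830 to 3.75) and C8b (0.329 to 1.47 against 0.852 to 2.15) overlapped, and C2 and Cfb were higher in every A3B liver (C2 0.551 to 0.871 against 0.368 to 0.505, Cfb 6.04 to 11.5 against 5.08 to 5.87). C3 (12.7 to 71.1 against 20.4 to 20.8) and C6 (0.0110 to 0.252 against 0.0795 to 1.36) overlapped too. The lower marker sums of the A3B livers raise this ratio for a gene that did not change. How many of all genes separate on it was not counted. In the livers of the first set Mbl2 (24.8 to 89.2 against 136 to 212) and Cfi (2.87 to 4.22 against 5.06 to 5.99) were again below the controls on this ratio, but C8a (0.158 to 0.667 against 0.401 to 5.96), C2 (1.91 to 3.76 against 1.84 to 4.34) and Cfb (12.2 to 18.6 against 14.3 to 16.4) overlapped. C6, C8b and C9 overlapped there too, and C3 was higher in every A3B liver (123 to 164 against 77.7 to 104).

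C8a also differed in its transcript models. The model of 3617 bases (ENSMUST00000064873) held 80.4% and 83.3% of C8a counts in the controls, and 31.4 to 67.5% in the A3B livers other than 48. The model of 1993 bases (ENSMUST00000048947) held 11.6% and 7.05% in the controls, and 29.9 to 65.3% in the same 5 A3B livers. In liver 48 these shares were 5.37% and 2.73%. The split between models is an estimate by kallisto, and no test was made of it.

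**Figure D2:**
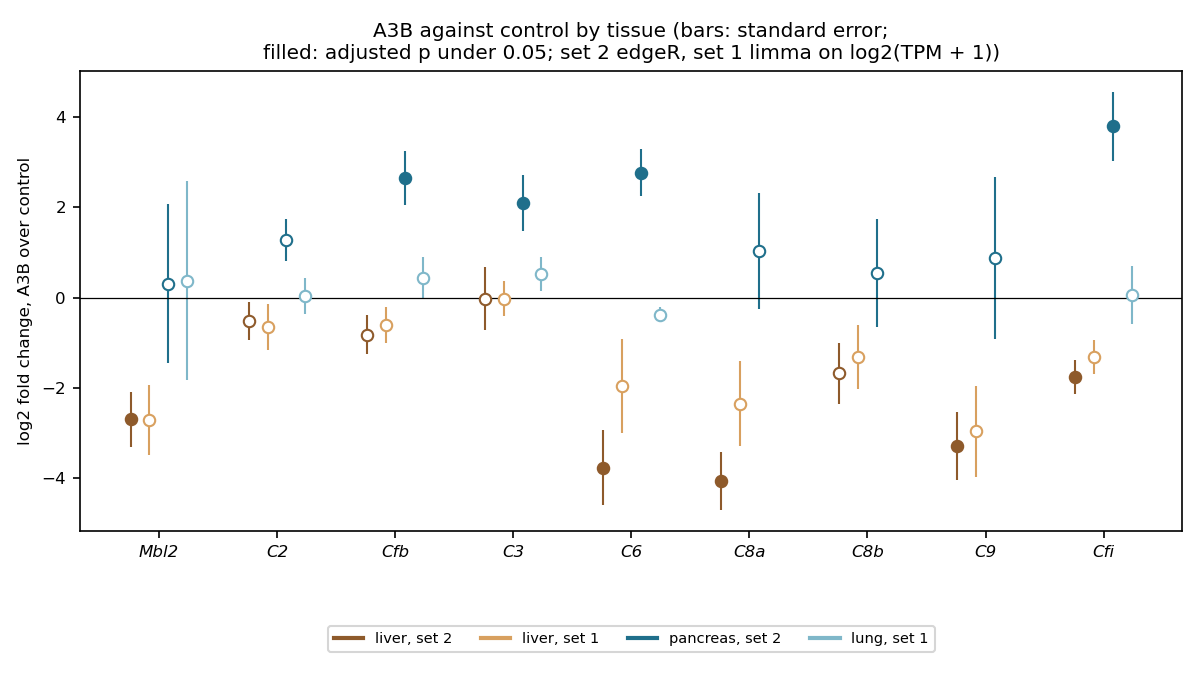
Log2 fold change (A3B over control, with SE) of each member in the livers and pancreases of the second set (edgeR) and the livers and lungs of the first (limma on log2(TPM + 1)); filled points have an adjusted p under 0.05. All 9 members are below 0 in both liver comparisons and above 0 in the pancreas.

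The first set gave livers of other mice, in which all 9 members again had negative log2 fold changes and none passed the test. limma on log2(TPM + 1) called 1.86% of 11507 genes lower. At an unadjusted p under 0.05, 4 of 9 members passed (C8a, C9, Cfi and Mbl2), as did 32.6% of all genes. The median of the members was -1.32, against 0.39 for all genes. Every A3B liver was below every control for C9, Cfi and Mbl2, as for 10.3% of all genes tested.

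Mbl2 was 737, 200 and 1959 TPM in A3B livers 23, 28 and 70, against 2852, 5148 and 5597 TPM in controls 11, 91 and 92. All 3 A3B livers were lower, at -2.71 ± 0.77 on the log2(TPM + 1) scale (SE, n = 3 and 3; adjusted p = 0.0669, limma). Cfi was 53.9, 33.9 and 83.6 TPM against 119, 145 and 142 TPM, also without overlap (-1.32 ± 0.38, adjusted p = 0.0681, limma). C9 was 5.35, 1.40 and 42.9 TPM against 139, 47.5 and 45.2 TPM. A3B liver 70 came close to the lowest controls, and the log2 difference was -2.96 ± 1.01 (adjusted p = 0.0971, limma).

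C8a was 2.97, 2.50 and 14.7 TPM in A3B livers against 125, 17.4 and 11.3 TPM in controls, with liver 70 above control 92 (-2.35 ± 0.95, adjusted p = 0.136, limma). C8b was 25.2, 10.1 and 64.7 TPM against 136, 47.6 and 43.0 TPM, and C6 0.630, 0.550 and 3.31 TPM against 50.5, 2.61 and 2.40 TPM. In each of these terminal genes A3B liver 70 reached the range of the controls and control liver 11 stood above all others. C2, Cfb and C3 overlapped between groups, C3 at 2304, 1323 and 3286 TPM against 2193, 1886 and 2565 TPM (-0.03 ± 0.39, adjusted p = 0.967, limma).

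A3B liver 70, labelled with 10 days of doxycycline where the other A3B livers have 14, was the highest A3B liver for every member. Without it limma called C9 (-4.12, adjusted p = 0.02202), Cfi (-1.64, adjusted p = 0.03519) and Mbl2 (-3.50, adjusted p = 0.02726) lower. Hepatocyte markers summed to 8047 TPM in the lowest A3B liver of this set and to 21970 TPM in the highest, against 21034 to 28119 TPM in controls. C9, Cfi and Mbl2 were thus below the controls in every A3B liver of both sets, 3 of 9 members, as were 10 of 33 other complement genes and 4.48% of all 10886 genes tested in both.

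The pancreas moved the other way. C3, Cfb, C6 and Cfi rose in A3B pancreases and C2, C8a, C8b, C9 and Mbl2 did not pass the test, 4 of 9 called by edgeR beside 17% of 19142 genes called higher. All 9 fold changes were positive, with a median of 1.28 on the log2 scale against 0.09 for all genes. In TPM 6 members (C2, C3, C6, C8a, Cfb and Cfi) were higher in every A3B pancreas than in either control, but so were 70.8% of all genes tested. In the control pancreases 10 acinar genes alone summed to 258897 and 281698 TPM, against 74268 to 192628 TPM in A3B pancreases, and the TMM scaling factors were 0.454 and 0.214 in the controls and 1.28 to 1.78 in the A3B pancreases. Scaled by library totals instead, the median of all genes became 2.29, and the members kept their direction, so the sizes of the pancreas fold changes below belong to TMM scaling.

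**Figure D3:**
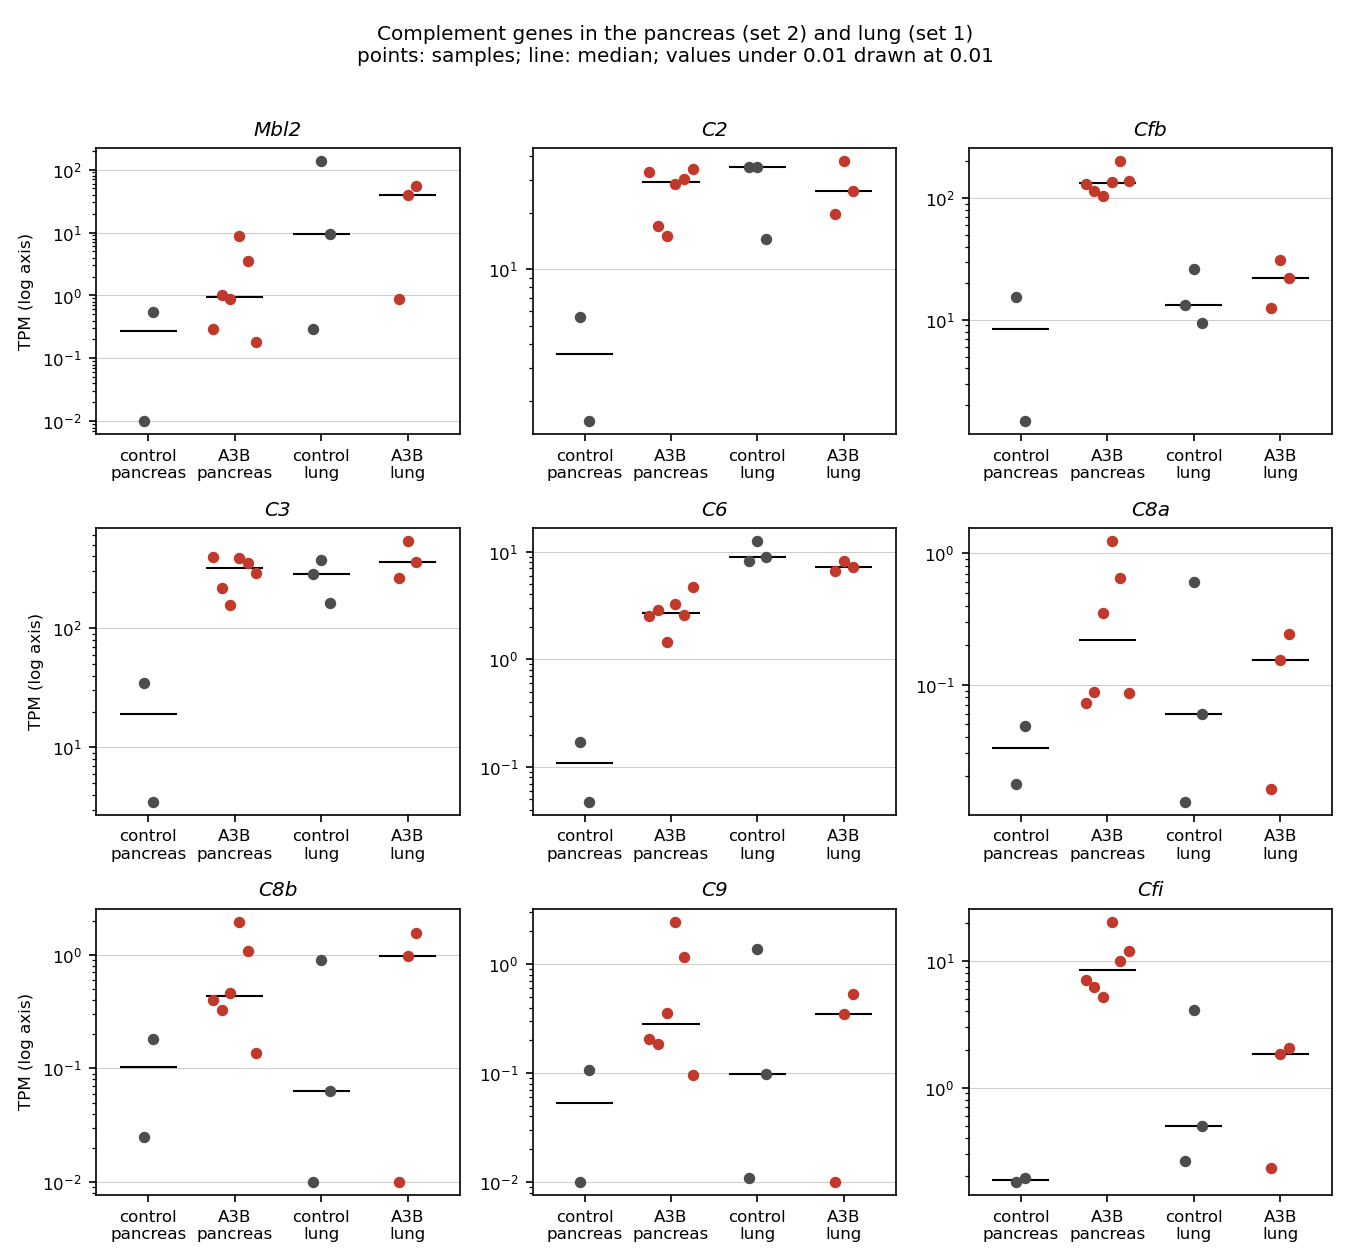
TPM of the 9 members (log axis; values under 0.01 are drawn at 0.01) in each pancreas of the second set and each lung of the first, with A3B and control mice as separate points. C2, C3, C6, Cfb and Cfi lie above both controls in all 6 A3B pancreases, and in lung most members overlap.

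Cfb showed the clearest rise among the convertase genes, from 1.47 and 15.4 TPM in control pancreases 45 and 168 to 105 TPM in the lowest, 132 TPM in the median and 201 TPM in the highest A3B pancreas. The log2 fold change was 2.65 ± 0.60 (SE, n = 6 and 2; adjusted p = 0.00843, edgeR). C3 was 155 to 394 TPM with a median of 320 TPM, against 3.51 and 34.8 TPM, at a log2 fold change of 2.10 ± 0.61 (adjusted p = 0.0242, edgeR). C2 was 15.0 to 34.3 TPM with a median of 29.2 TPM, against 1.55 and 5.55 TPM. The C2 groups did not overlap, and the log2 fold change of 1.28 ± 0.47 did not pass (adjusted p = 0.063, edgeR). C2 was called by DESeq2 and without A3B pancreas 153. It was also called by limma on log2(TPM + 1) and with library totals, settings under which far more of all genes were called higher. Control 45 was lower than control 168 for all 3 genes, and the sizes rested on which control was used. Without control 168 the log2 fold change was 4.39 for Cfb, 3.52 for C3 and 2.30 for C2 (adjusted p = 0.01111 for C2, edgeR). Without control 45 it was 1.91 for Cfb, which was still called, 1.42 for C3, which was not (adjusted p = 0.1098, edgeR), and 0.72 for C2. The C3 call was also lost without A3B pancreases 44 and 137 (2.01, adjusted p = 0.07197, edgeR), in the fit over all 16 samples (2.17, adjusted p = 0.07817, edgeR) and among mice with Y expression, where 168 is the only control (1.23, adjusted p = 0.1967, edgeR). Short models at the 3′ end held 59.6% and 35.7% of the Cfb counts in control pancreases 45 and 168 and 6.45 to 28.9% in the A3B pancreases, without overlap, and their part in the Cfb result was not tested.

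Cfi had the largest log2 fold change of the 9 members in the pancreas with every library in the fit. It was 5.19 to 20.4 TPM with a median of 8.52 TPM in A3B pancreases against 0.195 and 0.180 TPM in controls, where it rested on 26 and 17 counts. The log2 fold change was 3.79 ± 0.76 (adjusted p = 0.00515, edgeR). C6 was 1.45 to 4.70 TPM with a median of 2.71 TPM against 0.0476 and 0.170 TPM, at a log2 fold change of 2.77 ± 0.52 (adjusted p = 0.00314, edgeR). Both genes were still called with either control left out, and without A3B pancreases 44 and 137, whose genotype labels are those of controls. Among mice with Y expression, with 168 as the only control, the log2 fold change of C6 was 2.33 (adjusted p = 0.05271, edgeR).

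C8a, C8b, C9 and Mbl2 remained low in the pancreas. C8a reached at most 1.23 TPM, C8b 1.95 TPM, C9 2.46 TPM and Mbl2 8.90 TPM, all in A3B pancreas 44, and their medians were 0.220, 0.431, 0.281 and 0.935 TPM. A3B pancreas 49 was the next highest for each. In the control pancreases they rested on 0 to 44 counts. Their log2 fold changes were 1.04, 0.55, 0.88 and 0.31, with adjusted p values from 0.567 to 0.908 by edgeR and standard errors above 1. Without A3B pancreases 44 and 137 the fold changes of C8b, C9 and Mbl2 turned negative (-0.13, -0.10 and -0.93).

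Markers of liver were also highest in those libraries. The 10 hepatocyte genes summed to 1271 TPM in A3B pancreas 44, 1205 TPM in 49, 486 TPM in 137, 245 TPM in 153, 172 TPM in 53 and 137 TPM in 125, against 106 and 51.6 TPM in controls 45 and 168. Per 1000 TPM of that sum, C8a was 0.179 to 1.44 TPM in A3B pancreases and 0.113 to 0.518 in A3B livers, and Mbl2 1.07 to 7.0 against 0.611 to 2.80, so that the ranges of the tissues overlapped. They also overlapped for C8b (0.677 to 2.90 against 0.329 to 1.47) and C9 (0.377 to 1.93 against 0.155 to 0.871). For the 5 other members they did not: Cfb was 106 to 945 against 6.04 to 11.5, C3 289 to 2870 against 12.7 to 71.1, C2 22.3 to 240 against 0.551 to 0.871, C6 2.12 to 27.4 against 0.0110 to 0.252, and Cfi 8.29 to 69.9 against 1.73 to 2.34. Control pancreases also lay above control livers for C2 (14.7 to 108 against 0.368 to 0.505), C3 (33.3 to 674 against 20.4 to 20.8) and Cfb (13.9 to 298 against 5.08 to 5.87). For C6 and Cfi the control tissues overlapped. The marker sums were far smaller in pancreas than in liver, and how many of all genes separate on this ratio was not counted.

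**Figure D4:**
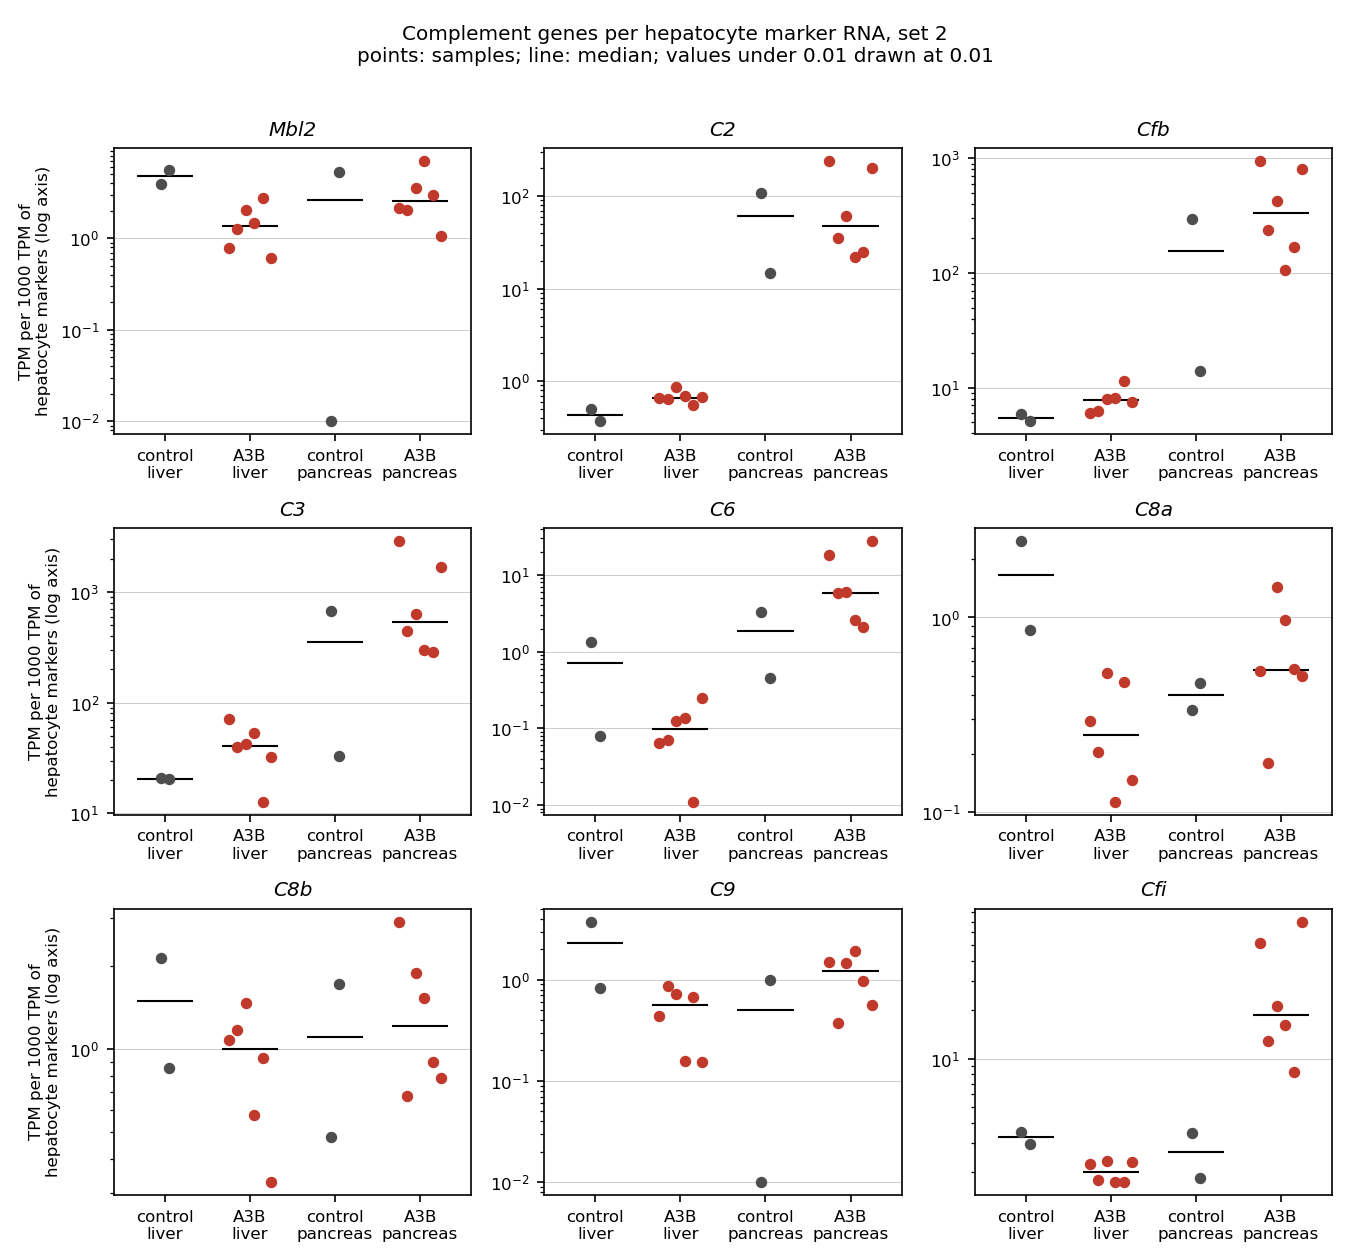
TPM of each member per 1000 TPM of 10 summed hepatocyte genes (log axis) in each liver and pancreas of the second set. A3B pancreases overlap A3B livers for C8a, C8b, C9 and Mbl2 and lie above them for C2, C3, C6, Cfb and Cfi. Control pancreases also lie above control livers for C2, C3 and Cfb.

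Other cell types differed between the groups of pancreases as well. The summed macrophage markers (10 genes) were 1176 to 3561 TPM in A3B pancreases against 38.1 and 523 TPM in controls, fibroblast markers (7 genes) 977 to 1499 TPM against 40.1 and 173 TPM, ductal markers (7 genes) 430 to 884 TPM against 68.1 and 103 TPM, and mesothelial markers (6 genes) 199 to 504 TPM against 7.23 and 43.3 TPM. By edgeR 5 of 10 macrophage, 6 of 7 fibroblast and 3 of 7 ductal genes rose, 9 of 10 acinar genes fell and none of 10 hepatocyte genes was called. Of the 6 mesothelial genes 1 rose (Krt19), 1 fell (Upk3b) and 5 had negative log2 fold changes after TMM scaling, with a median of -1.21, against the direction of their summed TPM. The part of these cells in the rise of C3, Cfb, C6 and Cfi was not tested.

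The difference between the tissues was tested as an interaction over all 16 samples. The A3B effect was higher in the pancreas than in the liver for all 9 members, and passed for C6, C8a, Cfb and Cfi, 4 of 9 beside 6.87% of genes called in that direction. Cfi differed by 5.73 ± 0.86 on the log2 scale (adjusted p = 0.00184, edgeR), C6 by 6.71 ± 1.31 (adjusted p = 0.00736, edgeR), Cfb by 3.64 ± 0.79 (adjusted p = 0.0102, edgeR) and C8a by 5.38 ± 1.67 (adjusted p = 0.0479, edgeR). Since 5 A3B mice and both controls gave both tissues, the interaction was refitted by limma voom with the mouse as a block, where Cfb and Cfi were called and C6 (5.90, adjusted p = 0.06435) and C8a (5.24, adjusted p = 0.1025) were not. limma voom without the block gave the same calls (C6 5.94, adjusted p = 0.08142; C8a 5.20, adjusted p = 0.1194), so the calls of C6 and C8a were lost with the change of tool and not with the pairing. Of the 16 fits with 1 library left out, edgeR called Cfi in 16, Cfb in 15, C6 in 14 and C8a in 5. C6 and C8a were lost without control liver 168, and C6, C8a and Cfb without control pancreas 45, which left Cfi alone. With Y expression as a covariate C8a was not called.

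Liver and pancreas of the same mouse were also set side by side in TPM, the scale on which 70.8% of all genes were higher in every A3B pancreas. The liver to pancreas ratio of TPM was 611 and 45.3 for Cfb in control mice 45 and 168, and 1.78 to 8.84 in the 5 A3B mice with both tissues. For Cfi it was 2707 and 2329 in the controls and 8.94 to 52.0 in A3B mice, and for C6 295 and 947 against 2.20 to 9.99. C3 went from 1025 and 70.7 to 4.45 to 31.3. In A3B mouse 49 the levels of C2 were nearly equal in both tissues, at a ratio of 1.07. Over all genes of at least 1 TPM on average and in that liver, and at least 0.01 TPM in that pancreas, the median ratio was 5.86 and 2.31 in control mice 45 and 168 and 0.754 to 1.35 in the A3B mice, and the members' ratios were not tested against it.

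The lung gave no call among the members. limma tested 6 of them (C8a, C8b and C9 stayed below a mean of 1 TPM) and called none, beside 36.8% of 13651 genes called in either direction. At an unadjusted p under 0.05 none of the 6 passed either, against 48.8% of all genes. C6 was 6.61, 8.11 and 7.14 TPM in A3B lungs 69, 70 and 74 against 8.22, 12.4 and 8.91 TPM in controls 87, 88 and 91. It was the only member whose lung groups did not overlap, with A3B lower as for 30.6% of all genes tested (-0.37 ± 0.16 on the log2(TPM + 1) scale, adjusted p = 0.111, limma).

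C3 in lung was 263, 532 and 360 TPM against 284, 370 and 163 TPM, Cfb 12.5, 30.9 and 22.1 TPM against 13.2, 26.1 and 9.39 TPM, and C2 19.7, 37.6 and 26.0 TPM against 34.9, 35.1 and 14.5 TPM. These ranges overlapped. Mbl2 varied most, at 0.863, 39.1 and 53.8 TPM against 0.298, 136 and 9.54 TPM. The lungs with Mbl2 above 30 TPM were A3B lungs 70 and 74 and control lung 88, and these held 1397 TPM or more of the hepatocyte markers where the other lungs held at most 118 TPM. The difference of the A3B effect between lung and liver passed for none of 9 members by limma, beside 10.7% of all genes, with C9 alone at an unadjusted p under 0.05 beside 29.9% of all genes, and for C9 alone when A3B liver 70 was left out.

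The members varied together in different ways in each tissue. Over the 8 livers of the second set (log2 CPM after TMM scaling) the 36 pairs had a median Pearson r of 0.77, from 0.21 for C3 with Mbl2 to 0.97 for C8a with Cfi. Within the 6 A3B livers they ran from -0.43 to 0.95, with a median of 0.67. In the 8 pancreases C2, Cfb, C3, C6 and Cfi correlated with each other at 0.69 to 0.97, and C8a, C8b, C9 and Mbl2 at 0.87 to 0.99, while pairs across these sets ran from -0.13 to 0.53. Within the 6 A3B pancreases the ranges were 0.47 to 0.88, 0.85 to 0.98 and -0.28 to 0.58. The points share library, scaling and, in the 8, the group difference, so these are descriptions.

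**Figure D5:**
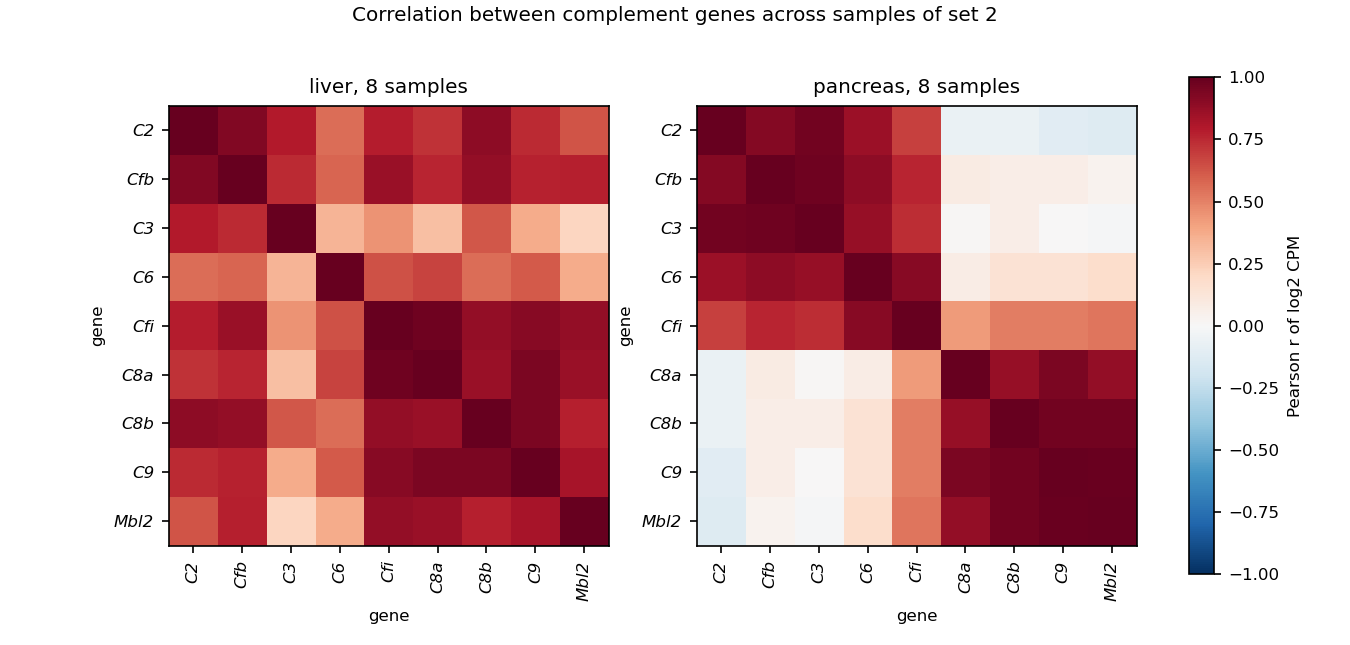
Pearson correlation of log2 CPM between each pair of members over the 8 livers (left) and the 8 pancreases (right) of the second set. In the pancreas C8a, C8b, C9 and Mbl2 correlate with each other at 0.87 or above and with the other members at no more than 0.53.

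The genes most like the mean profile of the members were, in the liver, Pmpca, Naa60, Ldhd, Acsm5 and Ugt1a6a, each with r of 0.98 over 8 samples among 6846 genes. In the pancreas they were Usp4, Arhgap8, Pigt, Wwp2 and Ints4, with r from 0.95 to 0.98 over 8 samples among 6625 genes.

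Other complement genes, 46 in 7 lists by role, were set beside the members. In the liver of the second set edgeR called 5 of the 42 tested lower and none higher, beside 2.41% of all genes called lower. Among these 5 were the lectin pathway protease Masp1 (-1.66 ± 0.28, adjusted p = 0.0172, edgeR), the soluble regulator Cfhr2 (-1.73) and the membrane inhibitor Cd59a (-1.29). Cd59b, at -2.76, did not pass (adjusted p = 0.0547, edgeR). With library totals 2 of the 42 were lower, and Masp1 (-1.20) and Cd59a (-0.84) were not among them. The calls were 3 of 11 soluble regulators, 1 of 5 proteases and 1 of 7 membrane regulators, and none among 7 recognition molecules, 2 C4 and C5 genes, 2 terminal genes and 8 receptors. Cd59a and Cd59b are near copies of each other, and Cfhr2 also has near copies, so their counts may be split uncertainly.

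In the pancreas 15 of the 43 other genes tested rose and 5 fell, beside 17% and 14.9% of all genes. The C1q chains, which start the classical pathway and are made by macrophages, rose together (C1qa 3.48, C1qb 3.71 and C1qc 3.66 on the log2 scale), as did the anaphylatoxin receptors C3ar1 (4.15, adjusted p = 0.000381, edgeR) and C5ar1 (3.13). Of the receptors 5 of 8 and 5 of 10 soluble regulators rose, as did 3 of 7 recognition molecules. Of the 7 membrane regulators 4 were called lower with TMM scaling and none higher, among them Cd46 (-2.79, adjusted p = 0.00224, edgeR). This direction depended on the scaling: with library totals none of the 7 was lower and 2 were higher, with Cd46 at -0.44 (adjusted p = 0.5215, edgeR). In all, 29 of the 43 other genes were higher and none lower with library totals, a scaling under which most of all genes tested were called higher. C1qa, C1qb, C1qc, C3ar1 and C5ar1 were called higher under both scalings, and with library totals so were most of all genes.

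In the first set 2 of 36 other genes were called in liver, 1 higher and 1 lower, beside 6.07% and 1.86% of all genes. Thbd, thrombomodulin, was higher (2.53, adjusted p = 0.0339, limma) and the protease C1s2 lower (-2.84, adjusted p = 0.0409, limma), while C1rb (-1.92) and C4a (1.51) did not pass. In lung 1 of 38 was higher and 3 were lower, beside 36.8% of all genes called in either direction. C5ar1 was higher (0.92, adjusted p = 0.0131, limma), and Cd59a (-0.77), C1rb (-0.77) and the receptor Cr2 (-1.12) were lower.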

How the data were processed

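RNA was isolated with AllPrep columns and sequenced from TruSeq Stranded libraries. For the second set the authors ran kallisto against mouse transcripts (mm10, GRCm38) and deposited, for each transcript, its estimated count and its TPM. These were summed per gene symbol here (116728 of 119414 transcripts, 97.8%, matched an annotated gene of GENCODE M21, and the rest were left out), and the sums of estimated counts were rounded. For the first set the authors deposited a table of TPM per gene made from a read count matrix with GenomicAlignments and GenomicFeatures, and 4 of 24849 rows with repeated names were left out. TPM does not keep depth, and it shifts when a few transcripts fill a library, as in the pancreas.

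Groups came from the sample titles. In the second set each tissue was tested with edgeR 4.0.16 (quasi-likelihood, robust, TMM scaling, filterByExpr) and in the first with limma 3.58.1 (trend, robust) on log2(TPM + 1) after a filter on genes whose mean was 1 TPM or more, in R 4.3.3. Fold changes of the first set understate those of low genes. Adjusted p values are Benjamini-Hochberg over all genes tested, with a threshold of 0.05. Differences between tissues were tested as an interaction in 1 fit over both tissues. Mouse numbers in the titles tie tissues of the same animal, so the fits across tissues were repeated with the mouse as a replicate block (limma; voom for the second set, there also without the block). Within a tissue A3B and control mice share no number. Nothing says how litters or batches fall, so p values measure the spread between these mice.

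Alternatives were DESeq2 1.42.0 (the tool of the study), library totals, no filter, limma on TPM, a pseudocount of 0.1, centring, a Y expression covariate, a fit over all 16 samples, read-through counts added, and each sample left out. Fits within mice with or without Y expression and limma voom without the block were added after seeing the data. Every member was named in every comparison. Of the other complement genes the 6 with the smallest p in liver and in pancreas of the second set and the 4 in each tissue of the first were named, except genes that are not reported here, and as genes of like pattern the 5 with the highest correlation with the members' mean among genes of at least 10 TPM. The members and lists were chosen with earlier results of these data known. Tests were checked on simulated data with 200 changed genes. Of 8-fold changes 100% were recovered within each tissue and 93% in the interaction of the second set. Of 2-fold changes 20% were recovered in the liver of the second set, 19% in its pancreas and 2% in its interaction. Recovery at the counts and the spread of the members themselves was not tested. In the livers of the first set C9 (-2.96, adjusted p = 0.0971, limma) and Mbl2 (-2.71, adjusted p = 0.0669, limma) were not called. A member that was not called is therefore not read as unchanged.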

Additional observations from a re-analysis of the deposited data

Results flagged for a closer look

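For 4 members of the second set the A3B effect differed from liver to pancreas by edgeR's interaction test. It was 6.71 on the log2 scale for C6, 5.38 for C8a, 3.64 for Cfb and 5.73 for Cfi. C6 and Cfi were lower in A3B livers and higher in A3B pancreases, each called in its own tissue. Cfb was called in the pancreas alone and C8a in the liver alone. By limma voom with the mouse as a block C6 (adjusted p = 0.06435) and C8a (adjusted p = 0.1025) were not called in the interaction, nor were they without the block, and without control 168 the log2 fold change of C6 in the liver was -1.05 (adjusted p = 0.6879, edgeR).

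Among the 6 A3B pancreases the Cfb level of mouse 49, 201 TPM, lay far above the next value. Its gap to that value was 0.656 of the range of the group, against Dixon's critical value of 0.625 for 6 samples. It was 1 of 18 groups checked, and chance gives about 1 in 20.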

How the results depend on the processing

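With 2 controls in each tissue of the second set and no depth given for the first, the calls among the members rest on few libraries. In the liver of the second set 5 members were called. That became 3 without a filter on low counts, 3 in a fit over all 16 samples, 1 by limma on log2(TPM + 1), 3 among mice with Y expression, 0 among the others (a fit against 1 control in which edgeR called 0 of all genes, with 5 members and 1107 of 18109 genes at an unadjusted p under 0.05, so that it says nothing of the members), 4 with Y expression as a covariate (C8a, C8b, C9 and Cfi), and 0 to 5 with 1 library left out (0 without control 168, 1 without A3B 44 or 137). DESeq2 called the same 5. C3 there turned positive at 0.38 with library totals, 0.087 by limma on TPM, 0.59 among mice with Y expression and between -0.40 and 0.091 with 1 library left out. The other 8 members stayed negative under every alternative run.

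In the pancreas 4 members were called, 7 with library totals and 3 to 5 with 1 library left out. With library totals most of all genes tested were called higher too. Without A3B pancreases 44 and 137 C8b, C9 and Mbl2 became -0.13, -0.10 and -0.93. With 1 library left out they ranged from -0.42 to 3.70, from -0.23 to 9.45 and from -0.92 to 10.31, the highest without control 45.

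Of the 4 calls of the interaction by edgeR, 2 stayed by limma voom, both with the replicate block, which pairs tissues of the same mouse, and without it (a fit added after seeing the data). Against limma without it, the block changed no call of a member in the comparisons across tissues. The interaction had 9 calls with library totals, 8 by limma on TPM and 1 to 5 with 1 library left out. Library totals and limma on TPM called pancreas genes higher in general, so their counts for the interaction are not read as a result about the members. Within a tissue no paired analysis was possible because A3B and control mice share no numbers.

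In the first set, leaving out 1 library gave 0 to 3 called members in liver and 0 to 1 for the difference of lung and liver, with the highest count without A3B liver 70 in both. C3 in its liver ran from -0.33 to 0.32. In lung C2 ran from -0.37 to 0.25, Cfi from -0.32 to 0.47 and Mbl2 from -1.25 to 2.11. The C6 difference of control liver and lung ran from -1.61 to 0.35 and was 0.78 with samples centred on their median.

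Over all genes the liver of the second set had 218 higher and 418 lower calls by edgeR, 878 and 241 with library totals, 1290 and 1061 by DESeq2 and 816 and 1148 in the fit over all 16 samples. In the pancreas 3252 and 2848 became 13483 and 210 with library totals and 11405 and 152 by limma on TPM. Library totals moved the median of all genes from 0.21 to 0.68 in liver and from 0.09 to 2.29 in pancreas. The cause of these shifts was not tested.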

Other observations

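In control livers the terminal components were highest in the animals with Y chromosome transcripts. Control liver 168 held 11.4 times the C6 TPM of control 45, 3.03 times its C9, 1.90 times its C8a and 1.69 times its C8b. In the other set of mice control liver 11 held 20.2 times the mean C6 of controls 91 and 92, 3.0 times their C9, 8.76 times their C8a and 3.0 times their C8b. Mbl2 went the other way, at ratios of 0.465 and 0.531, and Cfi at 0.795 and 0.828. The pancreas of control mouse 168 was below that of mouse 45 for C8a (0.0173 against 0.0487 TPM), C8b (0.0247 against 0.182 TPM) and C9 (0 against 0.106 TPM), and above it for C6 (0.170 against 0.0476 TPM). There was 1 such control in each set and no test was made.

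Among the 6 A3B livers of the second set the 3 with Y chromosome transcripts (125, 137 and 153) held 106 to 169 TPM of C8b, and the 3 others (44, 48 and 49), of which 48 and 44 held 1.02 and 0.416 TPM of these transcripts, 15.7 to 67.4 TPM. C9 overlapped only a little, at 44.1 to 83.5 TPM against 7.42 to 49.3 TPM, whereas C6 overlapped widely, at 6.28 to 14.5 TPM against 0.802 to 14.3 TPM. These are values of single samples split after seeing the data, with no test.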
